A study of Homo sapiens with 4 samples.

Results

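The endoplasmic reticulum (ER) is where secreted and membrane proteins are folded, and liver cells, which secrete most plasma proteins, depend on it heavily. Its chaperones and disulfide isomerases fold incoming chains, and chains that fail are sent back to the cytosol by ER-associated degradation. When unfolded chains build up, 3 sensors start the unfolded protein response (UPR). ATF6 and IRE1, the product of ERN1, act through ATF6 and XBP1 on chaperone and degradation genes, whereas PERK, the product of EIF2AK3, blocks translation and raises ATF4, a factor that also answers to amino acid shortage.

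The genes described here are 42 genes of ER folding, ER-associated degradation and the UPR, chosen by name and all found among the 59652 genes of the count table. They comprise 11 HSP70 and HSP90 chaperones and partners, 3 lectin chaperones and glycoprotein checkers, 9 isomerases and oxidases, 11 degradation genes, 5 sensors and UPR factors and 3 translocon genes. RNA was measured in wild-type Huh7 and PLC cells, both human hepatocellular carcinoma lines, after 48 h in glucose-free DMEM with 10% serum to which 5 mM glucose (low glucose) or 25 mM glucose (high glucose) was added. Each line at each concentration gave 1 library of rRNA-depleted total RNA, so the 4 libraries allow no check against replicates.

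The libraries held 21376239 and 30085303 counted reads for Huh7 cells at 5 mM and 25 mM, and 30279716 and 16049686 for PLC cells. In these libraries a count of 3 reads stands for 0.14, 0.0997, 0.0991 and 0.187 CPM, the count scaled to the library total. FPKM, the count scaled by gene length and by the library total, was used to compare levels between genes. Of 9 hepatocyte and liver tumour markers, none was at 3 reads or fewer in every library, and their summed FPKM was 4970 and 5090 in Huh7 and 674 and 1440 in PLC cells. The part of this difference in the PLC values below was not tested. TTR, which encodes the carrier transthyretin, had 4 and 0 reads in PLC cells. The 8 markers of blood, vessel and stromal cells summed to between 0.233 and 3.03 FPKM, and 3 of them were at 3 reads or fewer in every library. Most of the sum in Huh7 cells was PECAM1, with 392 and 593 reads (2.37 and 2.55 FPKM). COL1A2 had 63 and 126 reads there.

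Several of these genes carry known UPR elements in their promoters, and those of the genes on which the results below turn are shown first, together with those of the 4 most abundant chaperones. The ER stress response element (ERSE, CCAAT and CCACG with any 9 bases between) and its second form (ERSE-II, ATTGG and CCACG with any 1 base between) are the sites through which ATF6 and XBP1 act. The UPR element (UPRE, TGACGTGG) is read by XBP1 and ATF6, and the CARE motif (TGATGCAA) by ATF4 with a C/EBP partner. These letters were searched on both strands from 250 bases before to 50 bases after the RefSeq start on GRCh38.p14, in the 39 members with such a promoter sequence. Capitals below mark the fixed letters of the motif, the sequence follows the strand of the gene, and a motif that lies on the other strand therefore reads as its reverse complement.
HSPA5 ERSE (chr9:125241386-125241414, minus strand): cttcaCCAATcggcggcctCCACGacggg
HSP90B1 ERSE, distal (chr12:103930211-103930239, plus strand): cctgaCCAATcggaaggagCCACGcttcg
HSP90B1 ERSE, proximal (chr12:103930316-103930344, plus strand): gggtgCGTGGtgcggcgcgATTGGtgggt
CALR ERSE (chr19:12938379-12938407, plus strand): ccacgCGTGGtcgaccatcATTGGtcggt
CANX ERSE (chr5:179698773-179698801, plus strand): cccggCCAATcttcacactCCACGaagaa
CRELD2 ERSE (chr22:49918549-49918577, plus strand): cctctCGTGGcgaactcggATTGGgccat
XBP1 ERSE (chr22:28800598-28800626, minus strand): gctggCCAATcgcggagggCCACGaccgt
SDF2L1 ERSE-II (chr22:21642109-21642129, plus strand): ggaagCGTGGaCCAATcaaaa
HERPUD1 ERSE-II (chr16:56932020-56932040, plus strand): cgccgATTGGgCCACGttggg
HERPUD1 CARE (chr16:56931961-56931978, plus strand): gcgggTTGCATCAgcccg

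The ERSE letters were found in 8 members (CALR, CANX, CRELD2, ERO1B, HSP90B1, HSPA5, PDIA6 and XBP1) and in 0.0769% of 35116 RefSeq promoters of the same length. The ERSE-II letters were found in HERPUD1, HYOU1 and SDF2L1 and in 0.0541% of promoters. UPRE letters were in DNAJC10, HYOU1 and TXNDC5, against 0.729% of promoters, and the match in HYOU1 overlaps its ERSE-II. HERPUD1 was the only member whose window held the CARE letters, which were in 0.866% of promoters. Counted per gene symbol, as the members are, the shares were 0.0916% for ERSE, 0.0696% for ERSE-II, 0.927% for UPRE and 1.08% for CARE. A match of letters is a description of the sequence and does not show that a factor was bound there.

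In low glucose as in high glucose, the ER genes were abundant, and their share of the reads was nearly the same at both concentrations. Together they held 0.89% and 0.907% of the reads of Huh7 cells at 5 mM and 25 mM, and 1.34% and 1.33% of those of PLC cells. The median FPKM of the 42 genes was 17.9 and 18.3 for Huh7 cells in low and high glucose and 27.7 and 29 for PLC cells, whereas the median of all genes over 0.5 FPKM lay between 3.05 and 3.23. The 5 members with the most reads held 50.7%, 51.3%, 44.6% and 46.7% of the members' reads.

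CALR (calreticulin), the soluble lectin chaperone that binds calcium, was the member with the highest FPKM in every library, at 272, 293, 329 and 372 (Huh7 cells in low and then high glucose, followed by PLC cells in low and then high glucose, the order used for all such values). Next came HSPA5 (BiP), the HSP70 of the ER and its main stress-induced chaperone, with 221, 249, 290 and 307 FPKM. CANX (calnexin), the membrane-bound partner of calreticulin, had 194, 177, 304 and 346 FPKM. XBP1, the factor whose RNA is spliced by IRE1, had 235, 232, 228 and 157 FPKM. HSP90B1 (GRP94), the HSP90 of the ER, had 180, 203, 200 and 175 FPKM. Below CALR the order of these genes changed between libraries, and XBP1 went from the second place in Huh7 cells at 5 mM to below PDIA4 in PLC cells at 25 mM. Counts on a whole gene do not separate spliced from unspliced XBP1.

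At the other end, DERL3, a derlin of the degradation channel, had 18, 21, 14 and 2 reads, and it alone of the 42 genes stayed under 0.5 FPKM in all libraries. The other 41 members had between 112 and 64082 reads in each library. TXNDC5, a disulfide isomerase with 123, 170, 287 and 112 reads, had the fewest of these, and 60.9% of its exon bases are shared on the same strand with the readthrough gene BLOC1S5-TXNDC5, which had 0 reads in all libraries. Of DERL3, 77% of the exon bases lie opposite those of SMARCB1, which had 908 to 5421 reads. Whether the counting used strand is not given in the sources used here, so the values of DERL3 are uncertain. Those of TXNDC5 are uncertain with either setting, as its overlap is mostly on the same strand. Overlap on the opposite strand also covers 29.8% of the exon bases of PPIB, 25.2% of those of PDIA6 and 18.9% of those of PDIA3. PDIA5 shares 14.2% of its exon bases on the same strand, with SEC22A and MIR7110, so strand does not settle its counts either. DNAJB11 shares 23.2% on either strand and 7.87% on the same strand. Of the 42 members, 30 share under 10% of their exon bases. The merged exons of DNAJC10 in the table are 21873 bases long, which sets its FPKM low for its reads.

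**Figure D1:**
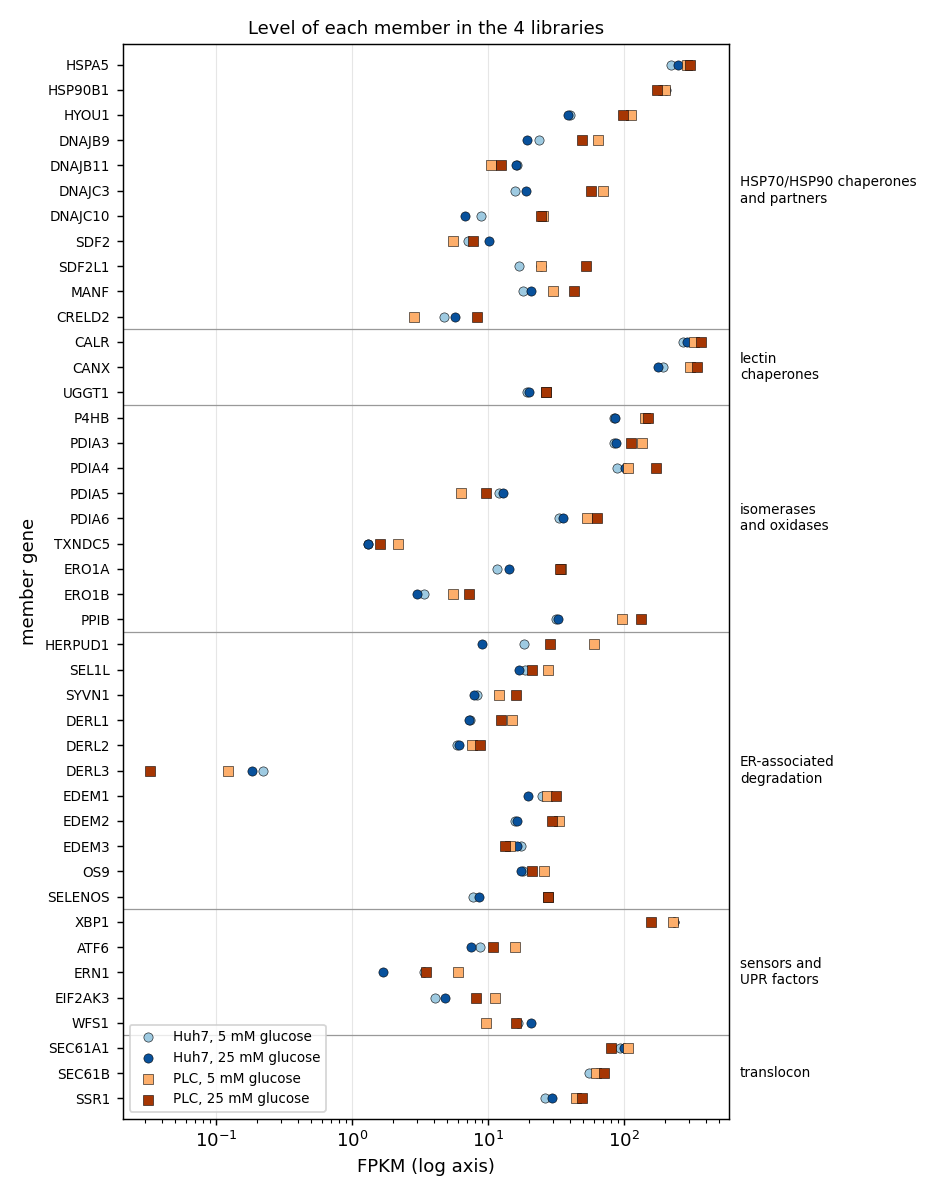
FPKM on a log axis of the 42 genes, by role, in the 4 libraries (circles, Huh7 cells; squares, PLC cells; pale, 5 mM and dark, 25 mM glucose; 1 library per point, so no error is drawn). CALR is the highest in every library, from 272 to 372 FPKM, and DERL3 is below all others.

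The first question was whether the genes differed between high and low glucose within a line. A member was counted as past the thresholds when its FPKM was over 0.5 in at least 1 library of the line and the ratio of high to low glucose, with 0.1 added to both FPKM values, was over 1.5 or under 0.67. In Huh7 cells, 0 of 41 members had a ratio over 1.5, against 14.1% of all genes past the same filter and 5.69% of those with at least 100 reads. Ratios under 0.67 were found for 2 members, HERPUD1 and ERN1, against 13.7% of all genes and 4.4% of those with at least 100 reads. The ratios of the other 39 members lay between the thresholds. In PLC cells, 5 of 41 members were over 1.5 (SDF2L1, CRELD2, PDIA4, PDIA5 and WFS1) against 26.2% of all genes and 16.3% of those with at least 100 reads. There too HERPUD1 and ERN1 were the 2 members under 0.67, against 17% of all genes and 11.8% of those with at least 100 reads.

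Both lines together had 0 members over 1.5 and 2 under 0.67, against 5.3% and 3.82% of the 18108 genes past the filter in both. The members' shares past the thresholds were thus near or below those of all genes. The median log2 ratio of the 41 members was 0.06 in Huh7 and -0.002 in PLC cells, beside 0.04 and 0.11 for all genes. With TMM scaling, which allows for a difference in RNA composition between libraries, log2 ratios shifted by -0.039 in Huh7 cells and by -0.12 in PLC cells. The calls in Huh7 cells stayed at 0 and 2 under TMM, whereas those in PLC cells became 3 over 1.5 and 4 under 0.67, with PDIA4 and PDIA5 at 1.47 and 1.40 and XBP1 and ATF6 at 0.631 and 0.634.

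Counting error was small for most members, and intervals of the ratio, which are exact binomial (Clopper-Pearson) 95% intervals of the counts without the added 0.1, excluded 1 for 28 members in Huh7 and 38 in PLC cells. Of these, 18 were above 1 and 10 below in Huh7 cells, and 20 above and 18 below in PLC cells. Among all genes with at least 100 reads, 60.5% and 74.6% of intervals excluded 1 in Huh7 and PLC cells, and over all genes past the filter 44.4% and 55.9%. Such an interval says that these libraries differ, not that the conditions do.

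HERPUD1, an ER membrane protein that brings ubiquitin ligases together for degradation and is itself a UPR target, fell in high glucose. It had 1975, 1387, 9226 and 2332 reads, or 18.3, 9.11, 60.2 and 28.7 FPKM. High glucose was below low glucose in each line, and both PLC libraries were above both Huh7 libraries. Its ratio of high to low glucose came to 0.502 (95% interval 0.466 to 0.535) in Huh7 and 0.478 (0.455 to 0.499) in PLC cells. The shared change, tested in edgeR by quasi-likelihood with a block for the cell line, was -1.12 on the log2 scale (SE 0.21) with an adjusted p of 0.0467. It was the only one of 42 members called, at an adjusted p under 0.05 over the 23217 genes tested, where 88 genes (0.379%) were called, 15 higher (0.0646%) and 73 lower (0.314%). Standard errors of the 42 members ranged from 0.17 to 0.88 (median 0.22) with 1 residual degree of freedom, so an adjusted p over the threshold does not show that a member was unchanged. The HERPUD1 call was lost with RLE size factors (adjusted p = 0.0514), with at least 10 counts in every library (0.0933) and without the block (1), and it held in the other settings down to 0.000462 with DESeq2. HERPUD1 lies on chromosome 16 from 56932142 to 56944864 on hg38, on the plus strand, and shares no exon bases with another gene.

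ERN1, which encodes the sensor IRE1, was at a low level throughout. It had 788, 551, 1972 and 614 reads and 3.39, 1.69, 5.99 and 3.52 FPKM in the 4 libraries. High glucose was below low glucose in each line, while the Huh7 library at 5 mM and the PLC library at 25 mM had nearly the same FPKM. The ratio was 0.511 (0.445 to 0.555) in Huh7 and 0.594 (0.536 to 0.643) in PLC cells. The shared log2 fold change was -0.97 (SE 0.25) with an edgeR adjusted p of 0.134, so ERN1 did not pass the test. Its adjusted p ranged from 0.037 without a filter on low counts to 1 without the block. The gene lies on chromosome 17 from 64039142 to 64130819 on the minus strand, and 3.98% of its exon bases lie opposite another gene.

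At the other end of the range stood SDF2L1 and CRELD2, a partner of HSPA5 that holds misfolded chains in solution and a secreted ER isomerase-like protein, both of them known ER stress genes. SDF2L1 had 380, 785, 788 and 892 reads, or 16.8, 24.6, 24.6 and 52.5 FPKM. The library at 25 mM was above that at 5 mM in each line, with ratios of 1.47 (1.3 to 1.66) in Huh7 and 2.13 (1.94 to 2.35) in PLC cells. CRELD2 had 521, 895, 449 and 691 reads, or 4.72, 5.76, 2.87 and 8.33 FPKM. Its level was the lowest of the 4 in PLC cells at 5 mM and the highest in PLC cells at 25 mM, with ratios of 1.22 (1.09 to 1.36) in Huh7 and 2.84 (2.57 to 3.28) in PLC cells. The shared log2 fold changes were 0.75 (SE 0.26) for SDF2L1 and 0.83 (SE 0.31) for CRELD2, and the edgeR adjusted p-values were 0.362 and 0.423. At an unadjusted p under 0.05, 2 members were higher (SDF2L1 and CRELD2) and 2 lower (HERPUD1 and ERN1), against 4.14% and 4.36% of all genes tested.

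Among the other chaperones and partners, the abundant members had ratios near 1. HSPA5 had 18559, 29428, 34438 and 19296 reads. Its ratio was 1.13 in Huh7 and 1.06 in PLC cells, and the PLC value turned to 0.972 with TMM scaling. HSP90B1 had 18076, 28621, 28471 and 13166 reads, and its ratio was 1.12 in Huh7 and 0.873 in PLC cells. HYOU1, the large HSP70-like chaperone GRP170, was at 0.961 and 0.867.

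The J-domain partners of HSPA5 had ratios on both sides of 1. DNAJB9 (ERdj4), a known XBP1 target, had 23.9, 19.5, 64.6 and 49.3 FPKM and ratios of 0.818 and 0.763. DNAJC10 (ERdj5), which reduces disulfides ahead of degradation, had 8.82, 6.81, 25.2 and 24.5 FPKM and ratios of 0.775 and 0.973. DNAJC3 (p58IPK), also an inhibitor of PERK, had 15.8, 18.9, 69.7 and 57.6 FPKM and ratios of 1.20 and 0.827, above 1 in Huh7 cells and below 1 in PLC cells. For DNAJB11 (ERdj3) the ratios were 0.979 and 1.17.

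SDF2, the paralogue of SDF2L1, had 7.15, 10.1, 5.52 and 7.74 FPKM. Its ratios, 1.41 (1.26 to 1.58) and 1.39 (1.23 to 1.6), were nearly alike in the lines and stayed under the threshold. MANF, a secreted ER stress protein that binds HSPA5, had 18.1, 20.7, 30 and 43.1 FPKM and ratios of 1.14 and 1.44. Over the 11 chaperones and partners, the median log2 ratio was 0.17 in Huh7 and 0.08 in PLC cells, and the PLC value was -0.04 with TMM scaling. In edgeR none of the 11 had an adjusted p under 0.05, and at an unadjusted p under 0.05 there were 2 (SDF2L1 and CRELD2).

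The lectin chaperones and UGGT1, the glucosyltransferase that tags misfolded glycoproteins, stayed between ratios of 0.913 and 1.14. CALR was at 1.07 in Huh7 and 1.13 in PLC cells, with 15806, 23893, 27050 and 16216 reads. CANX was at 0.913 (0.899 to 0.927) and 1.14 (1.12 to 1.15), with 28796, 36991, 64082 and 38560 reads, so it was the deepest counted member and had opposite directions in the lines. UGGT1 was at 1.02 and 0.99.

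Among the disulfide isomerases, PDIA4 (ERp72) had 89.4, 102, 107 and 171 FPKM. The PLC library at 25 mM stood above the other 3 libraries, and the ratio was 1.14 in Huh7 and 1.6 (1.55 to 1.64) in PLC cells. PDIA5, a less abundant isomerase known to act on ATF6, had 12, 12.8, 6.37 and 9.73 FPKM and ratios of 1.06 and 1.52 (1.37 to 1.7). P4HB, which is the classical protein disulfide isomerase and a subunit of prolyl hydroxylase, was at 1 and 1.06, the latter 0.973 with TMM scaling. PDIA3 (ERp57), which works with calreticulin and calnexin, was at 1.04 and 0.842, and PDIA6 at 1.08 and 1.17.

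ERO1A and ERO1B encode the oxidases that recharge the isomerases, and each had an interval above 1 in a single line. ERO1A had 11.7, 14.3, 34.5 and 33.8 FPKM with ratios of 1.23 (1.16 to 1.3) in Huh7 and 0.98 (0.943 to 1.02) in PLC cells. ERO1B had 3.4, 3.03, 5.56 and 7.24 FPKM with ratios of 0.894 (0.783 to 1.02) and 1.3 (1.18 to 1.44). PPIB (cyclophilin B), a proline isomerase, was at 1.05 and 1.38, and TXNDC5 at 0.983 (0.774 to 1.25) and 0.748 (0.586 to 0.919). None of the 9 isomerases and oxidases had an edgeR adjusted p under 0.05 or an unadjusted p under 0.05.

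Over the 10 degradation genes past the filter, HERPUD1 included, the median log2 ratio was -0.06 in Huh7 and -0.14 in PLC cells. SEL1L and SYVN1, which form the core of the HRD1 ubiquitin ligase, lay on opposite sides of 1 in PLC cells. SEL1L had 18.8, 16.9, 27.6 and 21 FPKM and ratios of 0.898 and 0.759, and SYVN1 had 8.34, 7.91, 12 and 16.2 FPKM and ratios of 0.949 and 1.35. EDEM1, which trims mannose from glycoproteins bound for degradation, had 24.8, 19.6, 27.1 and 31.6 FPKM and ratios of 0.79 (0.754 to 0.826) and 1.16 (1.11 to 1.21).

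The related EDEM2 and EDEM3 were at 1.04 and 0.927 in Huh7 cells and at 0.883 and 0.93 in PLC cells. OS9, a lectin that delivers glycoproteins to the ligase, was at 0.97 and 0.813. The derlins DERL1 and DERL2 were at 0.981 and 1.04 in Huh7 cells and at 0.825 and 1.14 in PLC cells. SELENOS, a selenoprotein that anchors the extraction machinery to derlins, was at 1.11 and 0.998. For DERL3 the counts of 14 and 2 reads in PLC cells gave an interval of 0.0297 to 1.17, so no difference was detectable at this depth. The degradation genes together held 0.0866% and 0.0755% of the reads in Huh7 and 0.138% and 0.116% in PLC cells. HERPUD1 was the only one of the 11 with an edgeR p under 0.05, adjusted or not.

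The sensors and UPR factors had the lowest median in PLC cells, a log2 ratio of -0.54 beside -0.02 in Huh7 cells. XBP1 had 15204, 21150, 20939 and 7615 reads. The ratio was 0.988 (0.968 to 1.01) in Huh7 cells, where the interval contained 1, and 0.686 (0.668 to 0.704) in PLC cells, just short of the threshold. ATF6, the sensor that is itself cut to become a transcription factor, had 8.71, 7.53, 15.7 and 10.8 FPKM, with ratios of 0.866 and 0.688. EIF2AK3 had 4.08, 4.82, 11.2 and 8.12 FPKM, with ratios of 1.18 (1.05 to 1.33) in Huh7 and 0.728 (0.665 to 0.792) in PLC cells.

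WFS1 (wolframin), an ER membrane protein that restrains ATF6 and is itself a UPR target, was the only one of the 5 with ratios above 1 in both lines. It had 16.5, 20.6, 9.67 and 16.1 FPKM, with ratios of 1.25 (1.18 to 1.33) and 1.66 (1.54 to 1.8). In edgeR none of the 5 had an adjusted p under 0.05, and ERN1 was the only one with an unadjusted p under 0.05. The shared log2 fold changes were -0.46 (SE 0.23) for ATF6, -0.36 (SE 0.21) for XBP1 and 0.45 (SE 0.23) for WFS1, with adjusted p-values of 0.657, 0.731 and 0.672.

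The translocon genes encode parts of the channel through which chains enter the ER. SEC61A1, its pore, had 93.3, 100, 107 and 79.8 FPKM and ratios of 1.07 and 0.748. SEC61B, a small subunit of the channel, was at 1.15 and 1.14, and SSR1, a part of the translocon-associated complex, at 1.13 and 1.10. With TMM scaling the intervals of SEC61B and SSR1 in PLC cells no longer excluded 1, at ratios of 1.05 and 1.02.

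The lines were also set beside each other member by member. Intervals were above 1 in both lines for 11 members (HSPA5, SDF2, SDF2L1, MANF, CRELD2, CALR, PDIA4, PDIA6, WFS1, SEC61B and SSR1) and below 1 in both for 8 (HYOU1, DNAJB9, DNAJC10, HERPUD1, SEL1L, EDEM3, ATF6 and ERN1). With TMM scaling these counts were 8 and 10, with HSPA5, SEC61B and SSR1 leaving the first set and OS9 and XBP1 joining the second. The shares of all genes with such intervals were not computed, so these counts are a description only. By ratio alone, 15 members were above 1 in both lines and 12 below. Of the 18108 genes past the filter in both lines, these were 6210 and 4262. Intervals lay on opposite sides of 1 for 7 members, against 10.2% of the 18108 genes past the filter in both lines, which has no minimum of reads.

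The ratio in PLC cells divided by that in Huh7 cells had an interval that excluded 1 for 31 members, 17 with the higher ratio in PLC cells and 14 with the lower. The share was 50.1% of the genes past the filter in both lines, which has no minimum of reads. As 41 members had at least 100 reads in every library and deeper counts narrow such intervals, the shares are not alike in depth. It was 2.38 (2.03 to 2.79) for CRELD2 and 0.615 (0.533 to 0.709) for EIF2AK3, and for HERPUD1 it was 0.956 (0.88 to 1.04). These intervals hold counting error only, and with 1 library per condition this difference was not tested. Across the 41 members, the log2 ratios in the lines had a Pearson r of 0.61 and a Spearman rho of 0.48, and without HERPUD1 and ERN1 0.47 and 0.39. Over 10718 genes of all kinds with at least 100 reads these were 0.43 and 0.35. The values are a description across genes, which share the same 4 libraries.

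**Figure D2:**
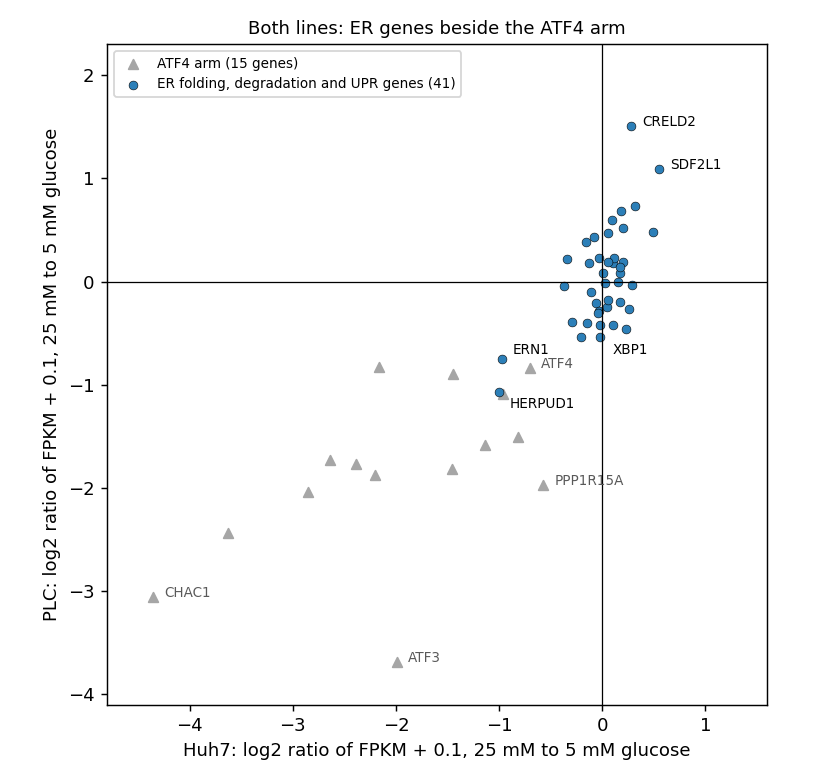
Log2 ratio of FPKM + 0.1, 25 mM to 5 mM glucose, in Huh7 cells (horizontal axis) and PLC cells (vertical axis) for 41 ER genes (blue circles, DERL3 left out) and 15 genes of the ATF4 arm (grey triangles), each from 1 library per line and concentration. The triangles are all below 0 in both lines, and the highest in PLC cells is at -0.83. HERPUD1 lies within their range in both lines. ERN1 lies within it in Huh7 cells but above all triangles in PLC cells, at -0.75. The other circles surround 0.

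The ATF4 arm served as the comparison within the stress response. It consists of 15 genes, ATF4 itself and known targets such as CHAC1, TRIB3 and ASNS. The list was made with their lower levels already known. Its direction, its medians and its number of calls below are therefore a description and no independent evidence. Its median log2 ratio was -1.99 in Huh7 and -1.77 in PLC cells, against 0.06 and -0.002 for the ER genes. edgeR called 12 of 15 lower and 0 higher, against 1 of 42 and 0 of 42 ER genes. CHAC1, which degrades glutathione, had 13.5, 0.567, 50.5 and 5.95 FPKM (log2 fold change -3.82, SE 0.35, adjusted p = 0.000429). DDIT3, which encodes the factor CHOP, had 12.4, 4.48, 20.7 and 11 FPKM and missed the threshold (-1.27, SE 0.3, adjusted p = 0.112). HERPUD1, with the ERSE-II and CARE letters shown above, had a shared fold change of -1.12 beside -0.85 (SE 0.2) for ATF4, whose adjusted p was 0.103. ERN1, whose window held no CARE letters, was at -0.97. Whether ATF4 had a part in the values of HERPUD1 was not tested.

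The reads of the ATF4 arm together went from 0.234% to 0.0969% of the library in Huh7 cells and from 0.345% to 0.122% in PLC cells. The corresponding shares of the sensors and UPR factors were 0.0913% and 0.09%, and 0.0985% and 0.0715%. Most of these reads were on XBP1, in PLC cells 20939 of 29832 at 5 mM and 7615 of 11472 at 25 mM. In PLC cells 4 of the 5 genes had ratios under 1, and WFS1 was at 1.66. By promoter, the 11 members with ERSE or ERSE-II letters had median log2 ratios of 0.10 in Huh7 and 0.18 in PLC cells, and the 28 with neither had 0.06 and -0.01. The 11 ranged from -1 to 0.55 in Huh7 cells and from -1.07 to 1.51 in PLC cells, and HERPUD1 and CRELD2 or SDF2L1 stood at the ends. Thus genes that share these letters lay on both sides of 1, with 6 of 11 above it in Huh7 cells, against 53.7% of all genes, and 7 of 11 in PLC cells, against 56.5%.

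A list of 79 other genes of ER protein handling, such as oligosaccharyltransferase, signal peptidase and transport receptor genes, had medians of 0.09 and 0.02. Of its 78 genes tested in edgeR, 0 passed the adjusted threshold, and at an unadjusted p under 0.05 there were 2 higher and 1 lower. The lower one was RCN1, a calcium-binding ER protein, with 8.61, 4.61, 3.47 and 0.92 FPKM (-1.45, SE 0.33, adjusted p = 0.0924). The higher ones were CREB3L3 and RNF5, with 4.84, 6.74, 0.923 and 4 FPKM for the liver factor CREB3L3 and 37.6, 41.2, 17.1 and 60.3 FPKM for the ubiquitin ligase RNF5. Of the 12 cytosolic and mitochondrial heat shock genes, 0 had an edgeR adjusted p under 0.05 and 0 an unadjusted p under 0.05, and their medians were 0.33 in Huh7 and -0.14 in PLC cells.

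More members were called between the lines than between the glucose concentrations. This held for all genes too, where edgeR called 42.9% of those tested for the line and 0.379% for glucose. At 5 mM, 34 of 42 members had a higher CPM in PLC than in Huh7 cells, and at 25 mM 33 of 42. The share of all genes with a higher CPM in PLC cells was not computed. The PLC level was at least 2-fold the Huh7 level at both concentrations for 8 members (HYOU1, DNAJB9, DNAJC3, DNAJC10, ERO1A, PPIB, HERPUD1 and SELENOS), against 16.5% of the genes with a value. The reverse held for 0 members, against 17.9% of genes. DNAJC3 was 4.42 and 3.05 times as high in PLC as in Huh7 cells at 5 mM and 25 mM, PPIB 3.08 and 4.06 times and SELENOS 3.61 and 3.25 times.

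In edgeR the cell line term, with glucose in the fit and both concentrations standing in for replicates, called 23 of 42 members, against 42.9% of all genes tested. Of these, 22 were higher in PLC cells, against 21.1% of all genes, and 1 was higher in Huh7 cells, against 21.8%. The median log2 difference of PLC to Huh7 cells was 0.61 over the members and -0.03 over all genes tested. For PPIB the log2 difference was 1.83 (SE 0.23, adjusted p = 2.5e-05) and for PDIA5, the member higher in Huh7 cells, -0.65 (SE 0.25, adjusted p = 0.0496). CRELD2 had no single order, as its CPM in PLC cells was 0.608 times that in Huh7 cells at 5 mM and 1.45 times at 25 mM. Each line is 1 culture per concentration, so line and culture cannot be told apart.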

How the data were processed

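Per the labels, the authors depleted rRNA from total RNA and built directional libraries. The submitters' processing notes name HISAT2, featureCounts and hg38. The annotation release, tool versions and strand setting are not given in the sources used here. The authors deposited 1 table of read counts per gene for the 4 libraries, not normalized, with gene coordinates and gene length in bases, the unit of which is other than an expression value. Of 59657 data lines, 59652 were used, and 5 broken lines of ANK2 were left out. The 37 mitochondrial genes had 0 reads.

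CPM, FPKM and ratios were calculated from these counts, with the thresholds of the study's methods (an FPKM above 0.5, and ratios above 1.5 or below 0.67). The 0.1 added to both FPKM values before taking a ratio was chosen here. Intervals are exact binomial 95% intervals and, for ratios of ratios, Poisson intervals on the log scale. PCR reads are not independent molecules, so intervals and the limit of 3 reads cover counting error only. The shared change was tested with edgeR 4.0.16 (glmQLFit and glmQLFTest, filterByExpr, TMM, cell line as a block, Benjamini-Hochberg adjustment over all genes tested). The fit has 1 residual degree of freedom and the lines stand in for replicates. Its p-values combine the spread of a gene's response between the lines with a spread estimated over all genes tested. They do not measure the spread between replicate cultures. DESeq2 1.42.0 and limma 3.58.1 were alternatives, and the code was tested on simulated data. Exon overlap was taken from the exon coordinates in the deposited table, and promoter windows from RefSeq on GRCh38.p14, of which all 48 windows of members matched hg38 letter for letter.

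The members and lists were chosen with earlier results of these data known. All 42 members are named. In each line, the values given in full include the 5 members with the largest log2 ratio in each direction among those that reach 100 reads in the higher library, and every member past the thresholds in both lines. Other lists are given by counts and medians with at most 5 genes.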

Additional observations from a re-analysis of the deposited data

Results flagged for a closer look

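The ratio of 25 mM to 5 mM glucose lay on opposite sides of 1 in the lines, with both intervals excluding 1, for 7 members, against 10.2% of all genes. That share has no minimum of reads, whereas 41 members had at least 100 reads in every library. Huh7 cells were above 1 and PLC cells below for HSP90B1 (1.12 and 0.873), DNAJC3 (1.2 and 0.827), PDIA3 (1.04 and 0.842), EIF2AK3 (1.18 and 0.728) and SEC61A1 (1.07 and 0.748). Huh7 cells were below 1 and PLC cells above for CANX (0.913 and 1.14) and EDEM1 (0.79 and 1.16). With TMM scaling, 6 of these 7 kept intervals on opposite sides, PDIA3 did not, and HSPA5, ERO1A and ERO1B joined them. With 1 library for each line and concentration, this difference was not tested.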

How the results depend on the processing

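The cell line block of the main test is the pairing used, and the labels give no replicates to pair within a line. Each group has 1 library, so none could be left out. Depth limited only DERL3. With ratios over 2 or under 0.5 as thresholds, the members past them went from 2 to 0 in Huh7 cells and from 7 to 3 in PLC cells. The median log2 ratio in PLC cells was -0.002, and it was -0.12 with TMM scaling, -0.13 with DESeq2 size factors and 0.08 with the trends of GC content and length removed. The number of members with a shared change was 1, and it was 0 with RLE size factors, 0 with at least 10 counts in every library (both with 4 at an unadjusted p under 0.05), 0 without the cell line block (0 unadjusted), 2 without a filter on low counts, and 1 each with DESeq2 and limma. Over all genes, 88 were called, and 80, 27, 0, 526, 197 and 92 in the same order of settings. The log2 fold change of SELENOS went from -0.01 to 0.001 with RLE size factors and 0.002 with at least 10 counts, and that of ERO1A from 0.05 to -0.04 without the block. The 8 members 2-fold apart between the lines compare with 23 called by the cell line term, an alternative chosen after seeing the data, as were those on exon overlap, on all genes with at least 100 reads and on TMM for the difference between lines. The cause of these changes was not tested.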

Other observations

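The inducible cytosolic HSP70 genes differed in direction between the lines. HSPA1A had 562 and 1420 reads for Huh7 cells in low and high glucose and 3678 and 1067 for PLC cells, with ratios of 1.79 and 0.548. HSPA1B had 211, 493, 1734 and 365 reads and ratios of 1.64 and 0.4. They are near-identical copies, so reads could be split between them, and this difference was not tested. Among hepatocyte markers, AFP, the fetal albumin of liver tumours, was at 1260 and 1430 FPKM in Huh7 cells and at 306 and 1010 FPKM in PLC cells. Most of the other markers were also higher in high than in low glucose in PLC cells. There SERPINA1 went from 22.1 to 51.8 FPKM, APOA1 from 0.783 to 2.96 and ALB from 52.4 to 72.3. Smaller rises were those of TF (9.19 to 11.1), HNF4A (35 to 38.5) and APOB (220 to 231). Only GPC3 and TTR were lower in high glucose in PLC cells. GPC3 was at 196 and 185 FPKM in Huh7 cells and at 28.2 and 21.3 FPKM in PLC cells. The part of these markers in the values of the ER genes was not tested.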
